A study of Homo sapiens with 4 samples.

Results

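The 3′ ends of polyadenylated RNA that mapped to the plus strand of the mitochondrial genome were examined in A-seq libraries of HEK293, an established human line of embryonic kidney origin. All plus-strand chrM positions of the 4 libraries were grouped: the position with the most reads over all libraries took every position within 25 nt, then the next most read position did so, until all were taken. This gave 203 clusters from 2038 positions, of 1156237 clusters in the whole series. The plus-strand chrM clusters held 434943 reads, and 71 of them had a mean of at least 1 read per 1000000 reads of the library (RPM) over the libraries. The other 132 clusters together held 0.246% of the reads. The 1 RPM limit fell between clusters of 0.999 RPM, at position 540, and 1.10 RPM, at position 10183.

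The groups had 1 library each, all from HEK293 cells grown in the same medium. They were cells without siRNA (untreated), cells given the scrambled-A control siRNA, cells given an siRNA against CstF-64 and cells given an siRNA against CF Im68. Harvest of the siRNA groups followed transfection by 3 days. A-seq selects poly(A) RNA on oligo-dT beads and sequences the base next to the poly(A) tail, from a primer anchored at that junction. CstF-64 and CF Im 68 are subunits of nuclear complexes that choose cleavage and polyadenylation sites on pre-mRNA, and the study depleted them to see how they bear on this choice. Variation between cultures could not be estimated from 1 library per group, and conditions were compared without tests. How far the 2 control libraries lay apart is shown in its place, which includes whatever the control siRNA itself did. Cell line markers and the levels of the targeted genes were not analysed here.

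Human mitochondrial DNA is transcribed from both strands into long precursors. The RNA that reads like the plus strand carries both rRNAs, most of the mRNAs and most of the tRNAs. In the usual account, the tRNAs punctuate this precursor: enzymes cut at each tRNA's 5′ and 3′ ends and so free the mRNAs and rRNAs between them. A mitochondrial poly(A) polymerase then extends the mRNAs, and in several of them the added A residues complete the stop codon. The nuclear cleavage and polyadenylation complex does not take part in these steps. A-seq counts reads at the priming site next to a run of A residues and not along the transcript, so levels of gene ends need no correction for length. How well each RNA was caught on the oligo-dT beads and primed was not measured. Levels of different gene ends are therefore read counts and not amounts of RNA.

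The mitochondrial reference behind the coordinates was checked first, against the gene ends of the RefSeq annotation of the mitochondrial genome, which holds 37 genes, 28 of them on the plus strand. For 13 plus-strand genes, at least 20 reads ended between 10 nt before and 12 nt after the annotated end. At ND2, COX3, ND3 and ND4 the most read position lay 2 nt beyond the annotated end, at ATP6 on it, at CYTB 3 nt and at RNR2 4 nt beyond. At TRNL1, TRNM, TRNG, TRNH and TRNT it lay 4 nt beyond, and at TRNF, the only one of the 13 that ends before RNR2 does, it lay 5 nt beyond. The distance was thus 1 nt larger for TRNF than for the other tRNAs. The other 5 tRNAs did not differ from each other, while mRNA and rRNA ends varied by more than 1 nt. The step at TRNF rests on a single gene, so whether the coordinates follow the RefSeq molecule base for base was not settled. The label hg19 is used with more than 1 mitochondrial sequence, whose numbering differs by a few bases, and the chromosome names of the files are of the UCSC form. No mitochondrial sequence was used here to check this further. A part of each distance may also come from how the files count positions, so the distances compare genes with each other and are not exact lengths beyond a gene. All positions below are 1-based chrM positions of the files, and genes were assigned with a window of 25 nt, which is wider than these shifts.

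TRNL1, TRNM, TRNG, TRNH and TRNT ended 2 nt farther beyond the annotated end than ND2, COX3, ND3 and ND4. Mature tRNAs carry a CCA sequence at the 3′ end that is added after cutting and is not part of the annotated gene. The bases of the reads are not in the counts, so the part of CCA in this distance was not tested.

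Plus-strand chrM reads made up 0.540% of the library of untreated cells (95% exact Clopper-Pearson interval 0.536 to 0.543%). They made up 0.754% with control siRNA (0.749 to 0.759%), 0.885% in the CstF-64 siRNA library (0.878 to 0.892%) and 1.43% in the CF Im 68 siRNA library (1.43 to 1.44%). The CF Im 68 library was highest, at 1.90 times control siRNA and 2.66 times no siRNA, while the control libraries differed by 1.40 times. The library totals were 7343112 to 15806975 reads. The intervals cover counting error only and not variation between cultures. The labels give no molecular identifiers that would separate copies of 1 fragment. Where copies were counted as separate reads, the intervals are too narrow. The minus strand of chrM had 99268, 104187, 66667 and 295818 reads in the same order, so the plus strand held 46.2%, 49.3%, 49.4% and 38.3% of the chrM reads. More mitochondrial RNA and less nuclear poly(A) RNA raise such a share alike and cannot be told apart here.

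Most plus-strand reads ended at the annotated 3′ ends of genes. A cluster was counted as a gene end when its main position lay within 25 nt of such an end. The 15 clusters of this kind held 79.8% of plus-strand chrM reads in untreated cells, 73.7% with control siRNA, 85.0% in the CstF-64 siRNA library and 89.8% in the CF Im 68 siRNA library. The control siRNA library had the smallest share at gene ends and the CF Im 68 library the largest. The 159 clusters inside genes held 19.5%, 25.5%, 14.3% and 9.85% in the same order. The remaining reads lay opposite minus-strand genes, in 12 clusters, or between genes, in 17.

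**Figure D1:**
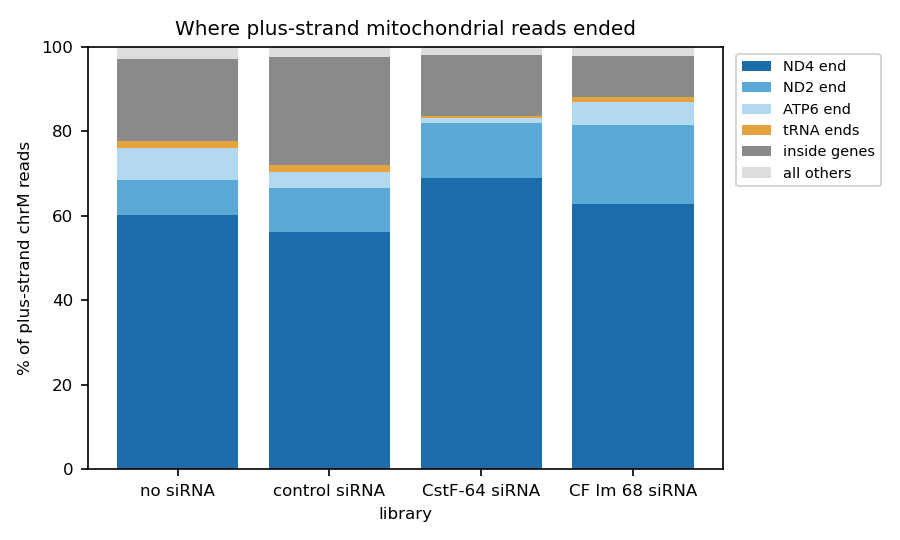
Share of plus-strand chrM reads (vertical axis, percent) in each library, by where the reads ended: the ND4, ND2 and ATP6 ends, all tRNA ends, inside genes, and all other clusters. The ND4 end held 56.2 to 69.0% of the reads in every library, and the grey part for reads inside genes was largest with control siRNA (25.5%) and smallest with CF Im 68 siRNA (9.85%).

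Of the 28 plus-strand genes, 12 had an end cluster of at least 1 RPM: ND2, ND3, ND4, COX3, ATP6 and CYTB among the 12 protein-coding genes, TRNF, TRNL1, TRNM, TRNG and TRNH among the 14 tRNA genes, and RNR2 of the 2 rRNA genes. Their mean levels spanned from 5643 RPM at ND4 to 5.71 RPM at TRNG. The order ND4, ND2, ATP6 and COX3 held in every library, while ND3, TRNL1 and RNR2, with means of 31.3, 30.1 and 25.4 RPM, changed places between libraries. ND4, ND2 and ATP6, the 3 most read ends, held 76.1%, 70.5%, 83.2% and 86.9% of plus-strand chrM reads in untreated cells and in the control, CstF-64 and CF Im 68 siRNA libraries.

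ND4 encodes a membrane subunit of respiratory complex I and is translated from an mRNA that also carries ND4L. Its end cluster had the main position 12139, at the border with TRNH and 2 nt beyond the annotated ND4 end. The cluster had 3244 RPM in untreated cells, 4237 RPM with control siRNA, 6104 RPM with CstF-64 siRNA and 8987 RPM with CF Im 68 siRNA. The order of the libraries was that of the whole plus strand. The ND4 end with CF Im 68 siRNA was 2.12 times control siRNA (95% exact interval of the ratio of counts 2.10 to 2.14) and 2.77 times no siRNA (2.74 to 2.80). It held 60.1%, 56.2%, 69.0% and 62.7% of the plus-strand chrM reads in the order untreated cells, control siRNA, CstF-64 siRNA and CF Im 68 siRNA.

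ND2, another complex I subunit gene, ended at 5513, at the border with TRNW and 2 nt beyond the annotated ND2 end. Its cluster had 457 RPM in untreated cells, 789 RPM with control siRNA, 1159 RPM with CstF-64 siRNA and 2704 RPM with CF Im 68 siRNA. This was the steepest order among the 3 most read ends: the CF Im 68 library was 3.43 times control siRNA (3.35 to 3.50) and 5.92 times no siRNA (5.77 to 6.07). The share of ND2 among plus-strand chrM reads was 8.47%, 10.5%, 13.1% and 18.9%.

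ATP6 encodes a membrane subunit of the ATP synthase. Its mRNA, which also carries ATP8, is followed directly by COX3 with no tRNA between them. The ATP6 end at 9207 had 407 RPM in untreated cells, 287 RPM with control siRNA, 101 RPM with CstF-64 siRNA and 768 RPM with CF Im 68 siRNA. The CstF-64 library was lowest and the CF Im 68 library highest. After CstF-64 siRNA the level was 0.353 times control siRNA (0.326 to 0.382) and 0.248 times no siRNA (0.230 to 0.268), whereas ND4 and ND2 were above both controls in that library. After CF Im 68 siRNA it was 2.68 times control siRNA (2.58 to 2.78) and 1.89 times no siRNA (1.83 to 1.95).

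The other mRNA ends had far fewer reads. COX3, a core subunit gene of cytochrome c oxidase, ended at 9992 with 46.1 RPM in untreated cells, 57.9 RPM with control siRNA, 63.7 RPM with CstF-64 siRNA and 149.9 RPM with CF Im 68 siRNA. ND3, a small complex I subunit gene, ended at 10406 with 30.8, 23.7, 30.4 and 40.2 RPM in the same order. CYTB, which encodes cytochrome b of complex III, ended at 15890 with 4.87, 5.50, 8.44 and 22.3 RPM. At each of these ends the CF Im 68 library was highest. At COX3 and CYTB it stood apart from the other 3 libraries, while at ND3 the levels lay within 1.70 times of each other.

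The rRNA genes were measured at 1 end. RNR2, the large ribosomal RNA, ended around 3233 with 29.9 RPM in untreated cells, 33.9 RPM with control siRNA, 10.2 RPM with CstF-64 siRNA and 27.8 RPM with CF Im 68 siRNA. The CstF-64 library was lowest, at 0.301 times control siRNA (0.233 to 0.385), and the other 3 lay close together. No read ended near the annotated end of RNR1, the small ribosomal RNA, in any library.

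tRNA ends were low in the CstF-64 library. TRNH, the histidine tRNA next to ND4, ended at 12210 with 42.1 RPM in untreated cells, 42.0 RPM with control siRNA, 10.9 RPM with CstF-64 siRNA and 67.2 RPM with CF Im 68 siRNA. TRNF, the phenylalanine tRNA at the start of the precursor, ended at 652 with 17.3, 22.1, 5.45 and 31.0 RPM in the same order. TRNG, for glycine, ended at 10062 with 4.43, 9.22, 1.23 and 7.97 RPM, the CstF-64 value resting on 9 reads. TRNM, for methionine, ended at 4473 with 7.34, 12.6, 3.54 and 11.6 RPM. In these 4 tRNAs the CstF-64 library was below both control libraries. TRNL1, a leucine tRNA next to RNR2, differed: it ended at 3308 with 14.7, 37.3, 19.7 and 48.7 RPM, and the CstF-64 library lay between the controls.

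**Figure D2:**
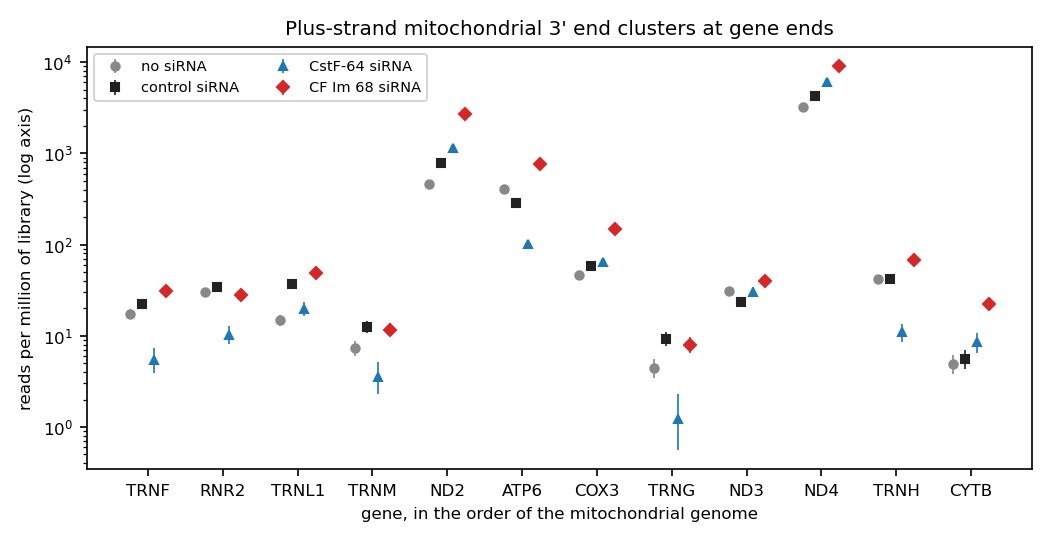
Level of the 12 gene-end clusters of at least 1 RPM mean, in RPM on a log axis, by gene in genome order and by library; vertical lines are exact 95% Poisson intervals of the counts. CF Im 68 siRNA (red) was the highest point at all 6 mRNA ends, and CstF-64 siRNA (blue) was the lowest point at TRNF, RNR2, TRNM, ATP6, TRNG and TRNH.

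How sharply reads stopped differed between genes. At ND4, 95.3 to 97.3% of the cluster's reads in each library ended at position 12139, and at ND2 93.1 to 94.9% ended at 5513. Over the 5 tRNA ends, the median share of a cluster's reads at the main position was 92.4%. With all libraries together it ranged from 71.0% at TRNL1 and 79.0% at TRNG to 98.3% at TRNM. At TRNM, 452 of 460 reads ended at 1 base. The COX3 end was spread over 9992, 9994, 9995 and 9996. In the library of untreated cells these positions had 31.4%, 16.5%, 29.8% and 15.4% of the cluster, and with CF Im 68 siRNA 24.0%, 20.6%, 25.3% and 23.04%. RNR2 reads were spread mainly over 3232 to 3239, with at most 33.3% at any of these positions in a library.

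The ATP6 end had 3 main positions, and their use differed with CstF-64 siRNA. Position 9207 held 65.6% of the cluster in untreated cells, 55.9% with control siRNA, 39.5% in the CstF-64 siRNA library and 68.1% in the CF Im 68 siRNA library. Position 9205 held 24.0%, 26.0%, 24.0% and 22.5%, nearly the same share in every library. Position 9200 held 5.04%, 5.94%, 18.3% and 4.86%. The CstF-64 library thus had the smallest share at 9207 and the largest at 9200. In reads, position 9200 had 324, 229, 136 and 478, and position 9207 had 4217, 2155, 293 and 6688. Scaled to RPM, position 9200 had 20.5, 17.0, 18.5 and 37.4, and position 9207 had 267, 160, 39.9 and 523. Position 9205 had 97.6, 74.6, 24.2 and 173 RPM. By level, the CstF-64 library thus lay between the controls at 9200 and below both at 9205 and at 9207.

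**Figure D3:**
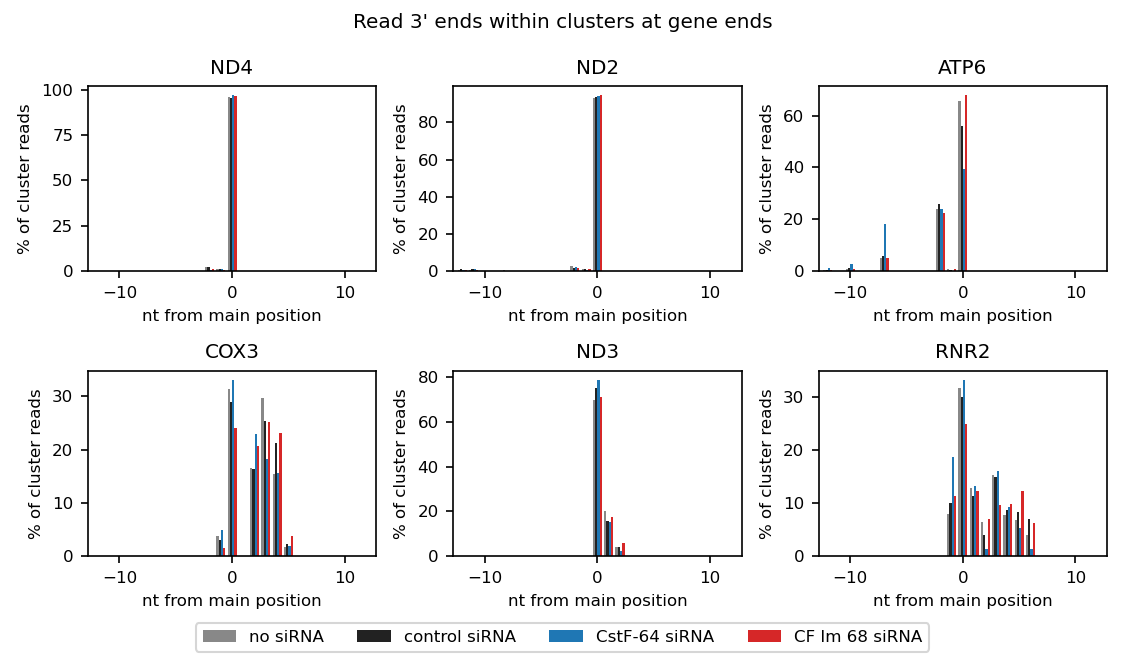
Share of a cluster's reads (vertical axis, percent) by distance in nt from the cluster's main position, for ND4, ND2, ATP6, COX3, ND3 and RNR2 in each library; positions within 12 nt that had at least 50 reads over the libraries are drawn, and the vertical scales differ. ND4 and ND2 each show 1 tall bar group, ATP6 shows a pair 2 nt apart plus a site 7 nt upstream that is tallest with CstF-64 siRNA (18.3%), and COX3 and RNR2 are spread over several bases.

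For 13 plus-strand genes no read of any library ended between 10 nt before and 12 nt after the annotated end. These were RNR1, ND1, COX1, COX2, ATP8, ND5, TRNV, TRNW, TRND, TRNK, TRNR, TRNS2 and TRNL2. TRNI had 5 such reads and ND4L 2. For a count of 0, the exact Poisson interval reached up to 0.233 RPM in untreated cells and 0.274 RPM with control siRNA. The limit was 0.502 RPM with CstF-64 siRNA and 0.288 RPM with CF Im 68 siRNA. These limits cover counting error only. ATP8 and ND4L share their mRNA with the gene that follows, so no separate end is known for them. The mRNAs of COX1 and ND5 are known to run past the coding region, opposite minus-strand genes. For COX1, no read fell on the 512 positions from 7300 to 7811, which span its annotated end, TRNS1 and TRND. Nuclear DNA holds near-identical copies of mitochondrial sequence, and the handling of reads that match both was not given in the sources used here. A missing end therefore says nothing about the transcript, and levels of every gene here are uncertain to that extent.

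Reads inside genes were concentrated in ND1 and ND4. Such ends can come from transcripts that are shortened and then polyadenylated, or from the oligo-dT primer starting at A-rich stretches, and these were not separated. Reads fell on 516 positions of the annotated span of ND1, a complex I subunit gene, which is 54.0% of its length. These counts take every position in a span, also those of end clusters that reach into it. ND4 had reads at 40.2% of its length, against 2.98% for ND2, 5.06% for COX1 and 1.49% for ND5. The 18 clusters inside ND1 with a mean of at least 1 RPM ran from 3382 to 4143, and the 16 inside ND4 from 10946 to 12069. The 10 most read clusters that lay at no gene end were 6 in ND4 and 4 in ND1.

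The sum of all 20 clusters inside ND1 was 362 RPM in untreated cells, 764 RPM with control siRNA, 467 RPM with CstF-64 siRNA and 612 RPM with CF Im 68 siRNA. Inside ND4 the sum was 552, 934, 636 and 601 RPM. In both genes the control siRNA library was highest, and both depleted libraries lay between the controls. The most read cluster inside a gene, at 11806 in ND4, had 118 RPM in untreated cells, 202 RPM with control siRNA, 118 RPM with CstF-64 siRNA and 102 RPM with CF Im 68 siRNA. The next, at 11606 in ND4, had 58.8, 146, 66.6 and 60.0 RPM. In ND1 the most read cluster, at 3652, had 52.4, 133, 68.6 and 76.6 RPM. All 3 were highest with control siRNA. The other clusters among the 10, at 11856, 11927, 11975 and 12027 in ND4 and at 3682, 3785 and 4109 in ND1, ranged from 24.8 to 83.3 RPM in untreated cells and from 60.7 to 117 RPM with control siRNA. After CstF-64 siRNA they ranged from 40.4 to 77.1 RPM, and with CF Im 68 siRNA from 58.5 to 72.3 RPM. Each of the 10 clusters was highest in the control siRNA library.

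The ratio of reads at the ND4 end to reads inside ND4 separated the libraries more than either sum. It was 5.87 in untreated cells, 4.54 with control siRNA, 9.59 in the CstF-64 siRNA library and 14.96 in the CF Im 68 siRNA library. The control siRNA library was lowest and the CF Im 68 library highest.

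**Figure D4:**
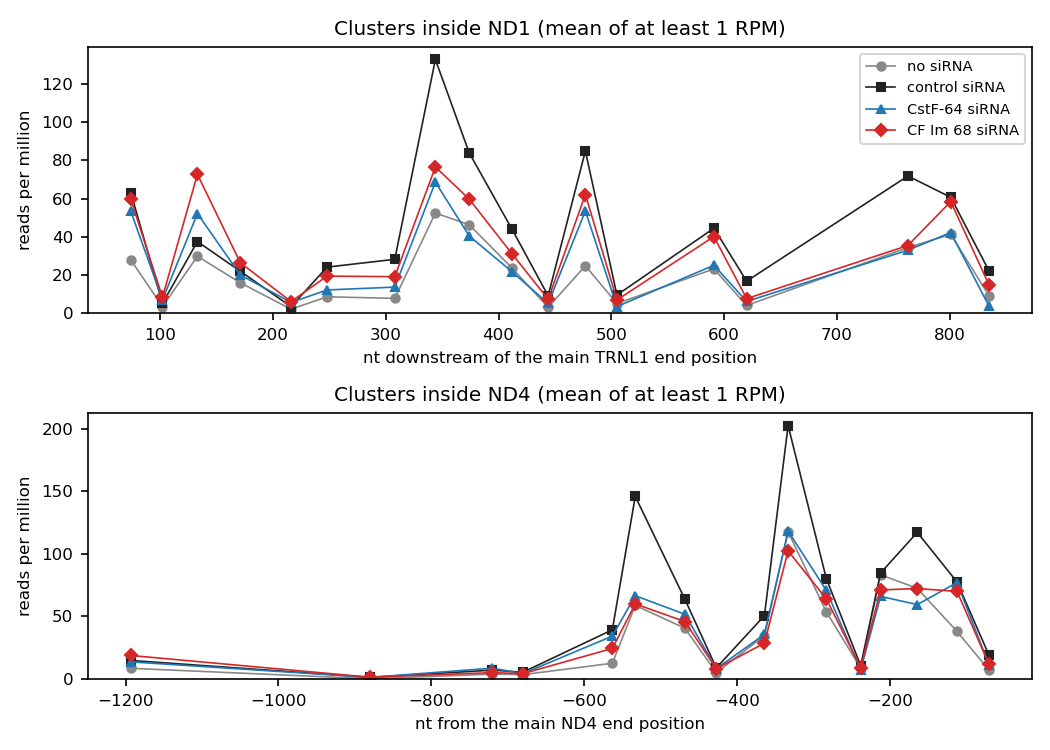
Level in RPM of clusters of at least 1 RPM mean inside ND1 (upper panel, distance in nt downstream of the main TRNL1 end position) and inside ND4 (lower panel, distance in nt from the main ND4 end position, negative upstream), by library; lines only join the clusters of a library. The peaks of the control siRNA library (black), such as 202 RPM at 11806 and 146 RPM at 11606 in ND4 and 133 RPM at 3652 in ND1, stand above the other libraries.

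Other genes had fewer reads inside them. The cluster at 7047 inside COX1, the catalytic subunit gene of cytochrome c oxidase, had 42.8 RPM in untreated cells, 60.9 RPM with control siRNA, 35.8 RPM with CstF-64 siRNA and 37.8 RPM with CF Im 68 siRNA. It held 90.1 to 94.9% of the COX1 reads in each library. Inside RNR2, 6 clusters of at least 1 RPM had at most 11.1 RPM in any library. Among ends outside plus-strand genes, the largest lay opposite ND6 at 14203, with 14.6, 32.0, 30.9 and 31.0 RPM in the order untreated cells, control siRNA, CstF-64 siRNA and CF Im 68 siRNA. The next lay in the control region at 165, with 18.0, 20.3, 30.2 and 13.4 RPM. A small end at 14747, where the stretch opposite TRNE borders on CYTB, had 4.18, 3.42, 2.86 and 6.41 RPM. It was counted inside CYTB by the window, and 87.4% of its 215 reads ended at 1 base, the largest share among the 56 clusters inside genes (7.90 to 87.4%). The ND5 mRNA is known to run opposite ND6 and TRNE up to the start of CYTB.

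CF Im 68 siRNA was compared with both controls over the 71 clusters. A cluster was called when its RPM was at least 2-fold above, or below, that of both control libraries, with counts under 3 reads set to 3. The clusters at least 2-fold higher with CF Im 68 siRNA were the ends of ND2, COX3, ND4 and CYTB, 4 of 71 (5.63%). Over all 33985 clusters of the series with a mean of at least 1 RPM, 12.4% were higher by this rule. The share of plus-strand chrM clusters was thus not above this background, and the 4 clusters were all mRNA ends, of which 6 were tested. The remaining 2, ATP6 and ND3, were 1.89 and 1.30 times no siRNA and 2.68 and 1.70 times control siRNA. CYTB, with the largest ratio to control siRNA among the ends, was 4.05 times control siRNA (3.12 to 5.30) and 4.57 times no siRNA (3.54 to 5.96), from 285, 74 and 77 reads.

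Only 1 cluster, at 1892 inside RNR2, was at least 2-fold lower with CF Im 68 siRNA, against a background of 4.84%. It had 6.07 RPM in untreated cells, 3.05 RPM with control siRNA, 3.13 RPM with CstF-64 siRNA and 1.41 RPM with CF Im 68 siRNA. Clusters inside genes went the other way from mRNA ends against control siRNA: their median ratio was 0.808 over 56 clusters, against 2.64 over the 6 mRNA ends. Against no siRNA the medians were 1.64 and 3.01. The median over the 71 clusters was 0.860 times control siRNA and 1.65 times no siRNA, against 1.05 and 1.20 over all tested clusters of the series.

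These calls are relative to the library total. When reads were scaled by the plus-strand chrM total in place of the library total, no cluster was called higher and 21 were called lower with CF Im 68 siRNA. Of these, 10 lay inside ND4. This scale also moved the median log2 ratio to control siRNA over all tested clusters of the series, from 0.0716 to −0.855. The share called over all clusters was not computed on it, so these counts have no background. On that scale ND2, CYTB, COX3 and ND4 were still above both controls, at 1.80, 2.13, 1.36 and 1.12 times control siRNA and 2.23, 1.72, 1.22 and 1.04 times no siRNA. ATP6 was 1.41 times control siRNA and 0.711 times no siRNA, and ND3 was below both, at 0.894 and 0.491 times.

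CstF-64 siRNA gave 9 clusters at least 2-fold lower than both controls, 12.7% of 71, against 11.6% over all clusters of the series, and 0 higher, against 3.75%. The share of lower clusters was near the background. Of these 9 clusters, 6 were gene ends: TRNF, TRNM, TRNG, TRNH, RNR2 and ATP6. The remaining 3 lay inside RNR2, at 2073 and 3126, and inside ND1, at 4143. The last had 9.05 RPM in untreated cells, 22.0 RPM with control siRNA, 3.54 RPM with CstF-64 siRNA and 14.7 RPM with CF Im 68 siRNA. The tRNA ends TRNH and TRNF were 0.259 (0.202 to 0.328) and 0.247 (0.173 to 0.344) times control siRNA, and 0.259 and 0.314 times no siRNA. TRNM was 0.282 and 0.482 times, and TRNG 0.133 (0.0594 to 0.261) and 0.277 times. TRNL1 was 0.530 times control siRNA and 1.34 times no siRNA. The call at TRNM and those at 2073 and 3126 ended when libraries were scaled with TMM factors or DESeq2 size factors, under which 6 clusters were lower. TRNM was then 0.500 times no siRNA with TMM factors.

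The mRNA ends other than ATP6 were above control siRNA in the CstF-64 library, and all of them but ND3 were also above no siRNA. ND4 was 1.44 times control siRNA (1.42 to 1.46) and 1.88 times no siRNA, and ND2 was 1.47 and 2.54 times. COX3 was 1.10 times control siRNA, with an interval of 0.980 to 1.24 that includes 1, and 1.38 times no siRNA. ND3 was 1.28 and 0.986 times, and CYTB 1.53 and 1.73 times. None of these 5 ends reached 2-fold against both controls. Scaled by the plus-strand chrM total, COX3 was below both controls, at 0.938 and 0.843 times, and ND3 was 1.09 and 0.601 times.

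**Figure D5:**
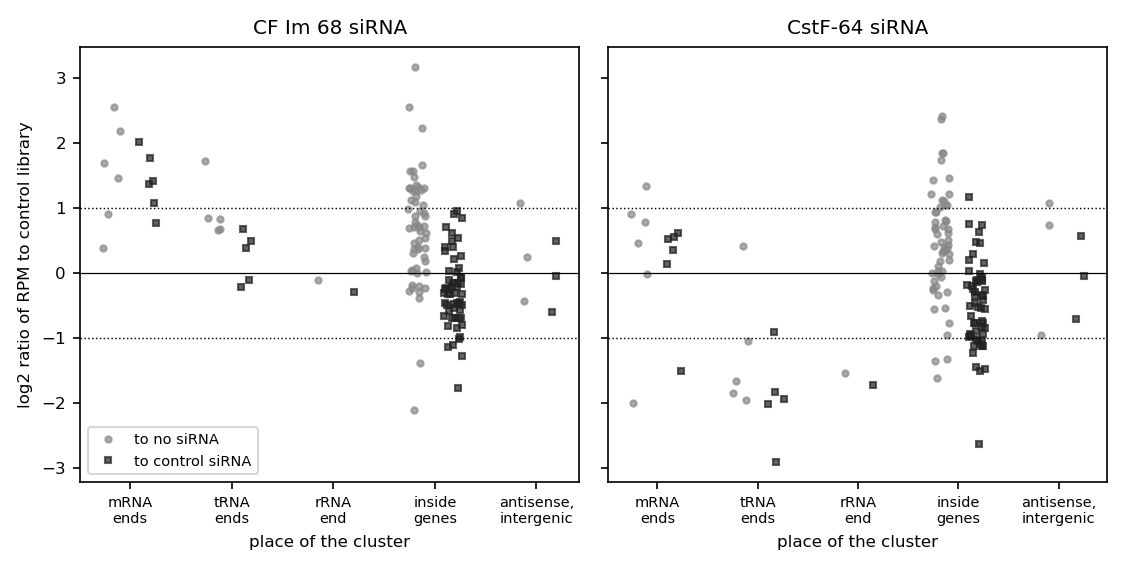
Log2 ratio of RPM of each of the 71 clusters to the no siRNA library (grey circles) and to the control siRNA library (black squares), by place of the cluster, with CF Im 68 siRNA (left) and CstF-64 siRNA (right); dotted lines mark 2-fold and sideways spread within a group is arbitrary. All 6 mRNA ends lie above 0 with CF Im 68 siRNA, 4 of 5 tRNA ends lie below the lower dotted line against both controls with CstF-64 siRNA, and clusters inside genes differ by the control chosen.

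The control libraries differed from each other. Of the 71 clusters, 26 (36.6%) were at least 2-fold higher with control siRNA than in untreated cells, against 12.6% over all clusters of the series, and 0 were at least 2-fold lower, against 5%. Of these 26 clusters, 23 lay inside genes, as did 56 of all 71. The median ratio over those 56 was 1.82. Of the 23, 9 lay in ND1 and 5 in ND4. At the mRNA ends no cluster reached 2-fold between the controls, and the ratios were 0.704 at ATP6 to 1.73 at ND2. Any ratio to a single control for a cluster inside a gene therefore depends on the control: 46 of 56 were higher with CF Im 68 siRNA than in untreated cells, and 15 of 56 were higher than with control siRNA. Over all tested clusters of the series, the median ratios of that library were 1.20 to no siRNA and 1.05 to control siRNA. The share of them above 1 was not counted.

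Within genes, the share of reads at the gene's most read cluster was compared in the 10 genes with at least 100 reads in every library. Of these, TRNL1 had only 1 cluster, so its share was 100% in every library and could not be called. A share was called when it was at least 10 percentage points from both controls in 1 direction. After CstF-64 siRNA it was lower in ATP6 and RNR2 and higher in none. In nuclear groups of clusters within 10 kb, the same rule called 6.42% lower and 5.05% higher. These groups took only clusters of at least 1 RPM and needed more than 1 of them. Neither limit was set for the mitochondrial genes, so the nuclear shares are a rough background. For ATP6 the share at the end cluster was 96.1% in untreated cells, 88.0% with control siRNA, 74.0% in the CstF-64 siRNA library and 94.2% in the CF Im 68 siRNA library. For RNR2 it was 50.1%, 54.9%, 36.8% and 54.6%. The CstF-64 library was lowest in both genes. The controls also differed in this share: control siRNA minus no siRNA was −8.07 points at ATP6 and 4.77 points at RNR2. It was 7.91 points at CYTB and −15.7 points at COX3, the last beyond the 10 points of the rule.

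After CF Im 68 siRNA the share was lower in CYTB and higher in none, against 17.1% lower and 6.92% higher among nuclear groups. With clusters within 10 nt this call at CYTB ended, and 0 genes were lower. The most read CYTB cluster lay inside the gene, at 15117, with 40.6%, 48.5%, 41.8% and 30.2% of the CYTB reads in the order untreated cells, control siRNA, CstF-64 siRNA and CF Im 68 siRNA. The CYTB end had 19.5%, 14.7%, 25.9% and 36.0%. At ND4 the end cluster had 85.4%, 81.9%, 90.6% and 93.7% of the gene's reads, higher in both depleted libraries than in both controls, but by under 10 points from no siRNA. ND2 reads were at the end in 99.7 to 99.95% of cases in every library.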

How the data were processed

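A-seq read counts were used from 4 libraries of HEK293 cells, 1 per group. The authors deposited raw counts of reads for every strand and base at which a 3′ end fell; the build was hg19 (GRCh37), per the submitters' processing notes. For the aligner, reads with several matches and duplicate reads, the steps are not given in the sources used here. Positions were clustered within 25 nt, counts were scaled to RPM by the library total, and clusters with a mean of at least 1 RPM were compared by the 2-fold rule, with no test, since each group had 1 library. Shares carry exact Clopper-Pearson and counts exact Poisson 95% intervals (scipy 1.17.1). The same rule over all clusters of the genome gave the background, and the scripts were tested on simulated data. TMM factors (edgeR 4.0.16) and DESeq2 1.42.0 size factors were alternative scalings.

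Gene names and ends came from the RefSeq table of GRCh38.p14, whose 37 mitochondrial genes were given strands from textbook knowledge. The planned check of the mitochondrial reference by the bases at read ends was not run, because no mitochondrial sequence was used here, and distances to gene ends took its place. For the same reason no sequence is printed. Named in the text are all plus-strand rRNA and protein-coding genes and tRNA genes with an end of at least 1 RPM. The most read clusters at no gene end and called clusters are named too. The clusters at 616, 9098 and 14747, the control-region cluster at 165 and single positions within clusters were chosen after their values were seen. The members, lists and rules were chosen with earlier results of these data known.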

Additional observations from a re-analysis of the deposited data

How the results depend on the processing

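With reads outside chrM as the scale, with TMM factors or DESeq2 size factors, and with the 1 RPM filter on the controls alone, the 4 clusters higher and the 1 lower after CF Im 68 siRNA kept their calls. Scaled by plus-strand chrM reads, 0 were higher and 21 lower, and by such reads outside the ND4 end cluster 1 and 14. Without a filter beyond 1 read in each control, 3 were lower; within 10 nt, 2 were lower; at 1.5-fold, 11 were higher and 2 lower. Against control siRNA alone 5 were lower, and against no siRNA alone 25 were higher and 2 lower. After CstF-64 siRNA, where 0 were higher and 9 lower, the higher count was 1 with DESeq2 size factors, 2 with reads outside the ND4 end cluster, 2 without a filter, 4 at 1.5-fold, 1 against control siRNA alone and 16 against no siRNA alone. The lower count was 15 within 10 nt and 18 against control siRNA alone. The cause of these differences was not tested, beyond the larger or smaller scale, number of clusters or set of controls that each setting uses. Shares over all clusters of the series were not computed for these settings, so their counts stand without a background. With positions of at least 2 reads, the plus-strand chrM share was 0.552%, 0.781%, 0.918% and 1.48% in the order no siRNA, control siRNA, CstF-64 siRNA and CF Im 68 siRNA. Without the ND4 end cluster, the share at gene ends was 49.4%, 40.0%, 51.6% and 72.6%; windows of 10 or 50 nt moved it by less than the counting interval. With clusters within 10 nt, the share at the main cluster was higher after CstF-64 siRNA in 1 gene and lower after CF Im 68 siRNA in 0, CYTB no longer being called. The single controls and the settings without the ND4 end cluster were chosen after seeing the data. Settings that leave out A-rich stretches were not run, as they need the sequence. No paired analysis was possible because each group had 1 library. TMM factors moved the median log2 ratio of all clusters after CstF-64 siRNA against control siRNA from −0.19 to 0.00. Among the 12 gene ends of at least 1 RPM, depth limits TRNG, TRNM and TRNF most, with 9, 26 and 40 reads in the CstF-64 library.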

Other observations

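The authors' running numbers of positions had few gaps on the plus strand of chrM. Numbers were missing for 2 positions in untreated cells and for 3, 1 and 3 positions in the control, CstF-64 and CF Im 68 siRNA libraries, or 0.0867 to 0.204% of the numbers in that stretch, while 10.2 to 12.2% of all numbers were missing per library. In the 4 libraries, missing numbers lay in the ATP8 and ATP6 region, after position 8490, 8491 or 8688, and in the CF Im 68 library 1 also lay between 2452 and 2540 in RNR2. No number was missing at the annotated ends of the genes without reads there, apart from ATP8.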
